A study of Mus musculus with 18 samples.

Results

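The NF-κB transcription factor genes and the genes that restrain or feed back on them were followed through a study of mouse lung in chronic hypoxia. The set was chosen by name, with earlier results of these data known, and holds 10 of the 23356 features in the deposited fragment table. It contains the 5 subunit genes Nfkb1, Nfkb2, Rel, Rela and Relb, and 5 inhibitor and feedback genes, Nfkbia, Nfkbie, Bcl3, Tnfaip3 and Birc3. All 10 passed the filter on low counts, under which 15388 genes were tested. RNA came from whole lung of male C57BL/6 mice: wild type mice and 2 knockout lines, labelled β-arrestin 1 -/- and β-arrestin 2 -/-. Arrestin proteins of this kind switch off activated G protein-coupled receptors and connect them to other signalling routes. Mice aged 8 to 12 weeks at entry spent 4 weeks in normoxia, at an oxygen pressure labelled as about 150 mmHg, or in hypoxia, at the pressure found at 18000 feet and about 70 mmHg. They were 12 to 16 weeks old at sampling. Each of the 6 groups had 3 libraries, with replicate numbers 0 to 2. Whether each library was made from a different animal is not stated in the labels, so p-values reflect spread among libraries that may be technical. How the mutant alleles were made, and whether the lines share littermates with the wild type, is not given in the sources used here.

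NF-κB dimers wait in the cytoplasm of resting cells, held by IκB proteins. In the canonical branch a kinase complex marks IκBα (Nfkbia) and IκBε (Nfkbie) for destruction, and dimers of p65 (Rela), p50 (from Nfkb1) and c-Rel (Rel) enter the nucleus. In the non-canonical branch the p100 product of Nfkb2 is cut to p52, which pairs with RelB. Dimers bind κB elements, and among their targets are genes that end the signal, such as Nfkbia and the ubiquitin-editing enzyme A20 (Tnfaip3), so the level of these RNAs is often read beside the activity of the pathway. Activity itself was not measured here. In lung, the pathway is known from epithelium, endothelium and macrophages, where it drives cytokine and adhesion molecule genes.

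The promoters of these genes are shown because κB elements near the start site are known from several genes of the feedback loop. Sequences are those of RefSeq on GRCm38.p6, the assembly of mm10, read on the strand of the gene. Windows from 250 bases before to 50 bases after a start site were held for 8 of the 10 members, all but Nfkb1 and Relb. The κB consensus searched on both strands has 10 letters: GGG, a purine, any base, A or T, a pair of pyrimidines and CC. Capitals mark every match, including matches that overlap each other. The first 5 stretches below are the 150 bases before the first listed start site, and the last is 30 bases around the match of Bcl3.
Nfkb2, chr19:46304587-46304736, plus strand: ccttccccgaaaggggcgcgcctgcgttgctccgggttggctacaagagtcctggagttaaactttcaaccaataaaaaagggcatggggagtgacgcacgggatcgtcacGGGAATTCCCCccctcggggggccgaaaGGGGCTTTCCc
Nfkbia, chr12:55492648-55492797, minus strand: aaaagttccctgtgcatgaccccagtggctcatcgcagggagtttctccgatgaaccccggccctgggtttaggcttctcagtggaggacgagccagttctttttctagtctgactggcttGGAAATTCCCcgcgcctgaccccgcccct
Nfkbie, chr17:45555550-45555699, plus strand: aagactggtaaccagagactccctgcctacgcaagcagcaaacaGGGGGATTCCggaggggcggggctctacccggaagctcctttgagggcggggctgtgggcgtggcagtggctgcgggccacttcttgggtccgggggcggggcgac
Tnfaip3, chr10:19015411-19015560, minus strand: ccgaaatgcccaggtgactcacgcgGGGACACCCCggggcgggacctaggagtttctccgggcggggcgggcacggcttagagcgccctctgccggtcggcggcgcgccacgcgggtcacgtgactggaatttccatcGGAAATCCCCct
Rel, chr11:23770970-23771119, minus strand: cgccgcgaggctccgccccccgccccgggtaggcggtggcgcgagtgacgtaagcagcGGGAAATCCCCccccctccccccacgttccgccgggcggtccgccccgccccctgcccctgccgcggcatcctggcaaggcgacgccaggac
Bcl3, chr7:19822734-19822763, minus strand: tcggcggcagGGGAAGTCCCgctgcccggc

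A κB match was found for 6 of the 8 members with a window (75%), and in 1480 of the 32851 windows of the whole table (4.505%). Among tested genes with a window, 730 of 11255 held a match (6.486%). Nfkb2 had overlapping matches that begin 39 and 38 bases before its first start site and another at 11 bases before it. The match of Nfkbia began 29 bases before the start, that of Nfkbie 106 bases before, those of Tnfaip3 125 and 12 bases before, and those of Rel 92 and 91 bases before. In Bcl3 the match lay at the third base of the transcribed part. The letters were not found in the windows of Rela and Birc3. These matches describe sequence and say nothing about binding in these lungs.

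Library totals lay between 16806806 and 25983090 estimated fragments (median 22836658). The shallowest, β-arrestin 1 -/- hypoxia replicate 2, also stood apart in its values: its mean correlation with the other libraries of its group (log2 CPM over all tested genes) was 0.9619, the lowest of the 18, against 0.9709 to 0.9908 for the rest. As a check of the labels, Arrb1 in β-arrestin 1 -/- lungs was 22.1% of wild type in normoxia on the fitted scale (log2 change -2.18 ± 0.12, adjusted p = 4.01e-08) and 23.8% in hypoxia. Arrb2 was not called lower where its loss is labelled: in normoxia 46.5, 38.9 and 36.6 CPM (fragments scaled to the size of the library) against 31.5, 30.2 and 35.1 in wild type. In hypoxia it read 30.7, 37.8 and 34.6 CPM against 33.5, 40.2 and 43.3 in wild type, groups that overlapped (log2 change -0.18 ± 0.20, adjusted p = 0.821). The other arrestin gene, Arrb1, was called lower in these libraries in normoxia, at 61.35% of wild type (log2 change -0.705 ± 0.118, adjusted p = 0.00435). In hypoxia Arrb1 was at 98.78% of wild type (adjusted p = 0.986). Its response to hypoxia also differed from wild type (0.687 ± 0.167, adjusted p = 0.0276). A gene total cannot show which exons were read, so the 6 libraries are called below by their label, "labelled β-arrestin 2 -/-". In tissue RNA, fewer cells of a type and less RNA per cell cannot be told apart.

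Nfkbia had the highest level of the 10 genes per length of transcript, with a median of 155.6 FPKM over 18 libraries (FPKM scales fragments to transcript length and library size), above 97.4% of tested genes. Rela (55.9 FPKM) and Nfkb1 (38.4 FPKM), the pair of the common p50 and p65 dimer, came next. The non-canonical pair was lower, Nfkb2 at 17.5 FPKM and Relb at 13.4 FPKM, close to Bcl3 at 14.3 FPKM and Birc3 at 12.99 FPKM. Tnfaip3 (8.14 FPKM) and Nfkbie (3.55 FPKM) followed. Rel, best known from lymphocytes and myeloid cells, was the lowest at 1.08 FPKM, with 19 to 121 fragments a library. Ranges over the 18 libraries did not overlap between Nfkbia, Rela, Nfkb1 and Nfkb2, nor between Tnfaip3, Nfkbie and Rel; the neighbours from Nfkb2 down to Tnfaip3 overlapped. Within genes, Rela varied least, from 49.98 to 67.03 FPKM, and Rel most, 4.47-fold between its lowest and highest library, followed by Tnfaip3 (3.50-fold).

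**Figure D1:**
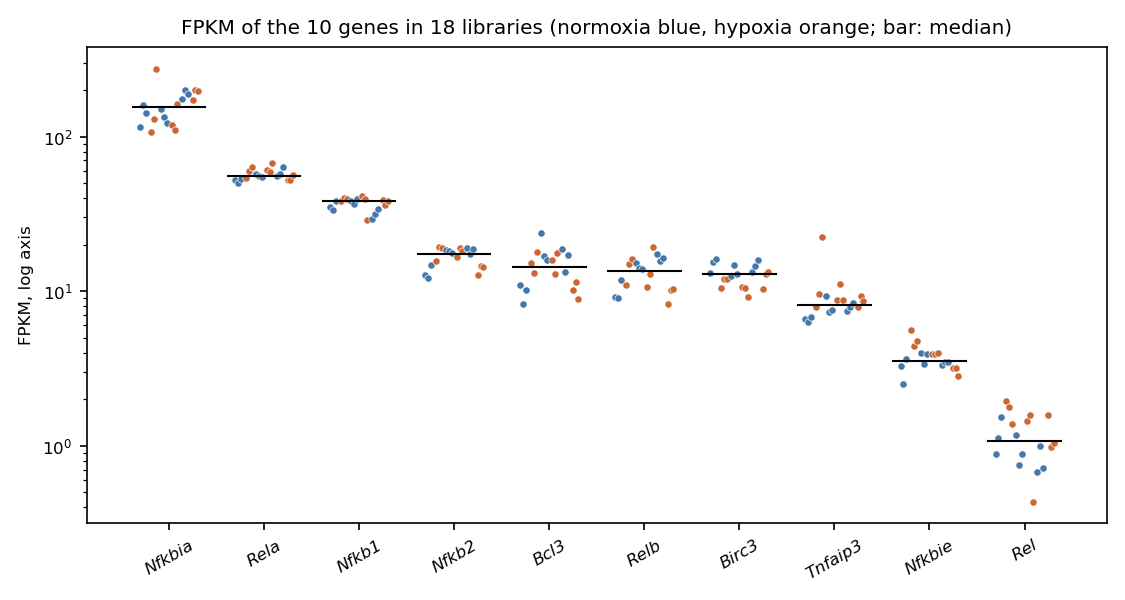
FPKM of each gene (log axis) in all 18 libraries, normoxia in blue and hypoxia in orange, 6 groups side by side within a gene in the order wild type, β-arrestin 1 -/-, labelled β-arrestin 2 -/-; bars are medians. Levels span from about 1.08 FPKM for Rel to 155.6 FPKM for Nfkbia, and single libraries of Nfkbia and Tnfaip3 stand above their groups.

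By the deposited table, all on mm10 and all protein-coding in RefSeq, Nfkb2 covers chr19:46304737-46327156, Relb chr7:19606222-19629438, Bcl3 chr7:19808462-19822755, Nfkbie chr17:45555716-45563168, Tnfaip3 chr10:19000910-19015410 and Birc3 chr9:7848701-7873170. Rela covers chr19:5637490-5648130, Nfkb1 chr3:135584655-135691547 and Rel chr11:23741729-23770970. For Nfkbia the table gives chr12:55280814-55492647, far longer than the RefSeq gene (chr12:55489409-55492647). The deposited interval of Nfkb2 both starts and ends further along the chromosome than the RefSeq gene (chr19:46300994-46312400). What else these intervals held in the authors' annotation was not tested. The kit does not mark strand, so fragments of antisense transcripts cannot be told from those of these genes.

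What chronic hypoxia does to these genes in the normal lung was read from the wild type groups. Nfkb2, Nfkbie and Tnfaip3 were called higher, and 0 of the 10 members were called lower. These are 3 of 10 members higher, where 2.85% of all tested genes were called higher and 4.76% were called in either direction (edgeR, adjusted p under 0.05 over all genes). The members' median log2 change was 0.48, against 0.00 over all tested genes, and 9 of 10 estimates were above 0. The estimate below 0 was that of Birc3 (-0.37 ± 0.12, adjusted p = 0.0882), whose groups did not overlap.

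Nfkb2, which encodes the p100 precursor, stood at 41.0, 39.6 and 48.1 CPM in wild type normoxia and at 51.1, 63.0 and 62.1 CPM in hypoxia. The groups did not overlap, and the rise was 0.45 ± 0.10 on the log2 scale (SE, adjusted p = 0.0159). Its partner Relb went from 20.7, 20.3 and 26.5 CPM to 24.9, 33.8 and 36.7 CPM. Here the lowest hypoxic library lay within the normoxic range, and the estimate of 0.50 ± 0.19 did not pass (adjusted p = 0.153).

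Nfkbie, the gene of the IκBε inhibitor, had 8.16, 6.26 and 9.06 CPM in normoxia and 14.03, 11.17 and 11.93 CPM in hypoxia, a rise of 0.66 ± 0.14 (adjusted p = 0.0124) without overlap. Bcl3 encodes a nuclear IκB protein that works with p50 and p52 dimers. Its libraries read 20.2, 15.3 and 18.8 CPM in normoxia and 28.0, 24.3 and 33.2 CPM in hypoxia. These groups also did not overlap, but the adjusted p of 0.0520 (log2 0.66 ± 0.18) lay just above the threshold.

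Tnfaip3, the gene of A20, stood at 31.2, 30.3 and 32.4 CPM in normoxia and at 37.9, 45.7 and 106.7 CPM in hypoxia (log2 1.02 ± 0.27, adjusted p = 0.0395). All hypoxic libraries were above all normoxic ones, and replicate 2 was far above the others. Without that library the change was 0.41 and was no longer called. In all, the call held in 6 of 15 alternatives. Other losses came when each of the 3 normoxia libraries in turn was left out and with each of the 3 limma settings. The call was also lost with the replicate block and with the wild type groups fitted alone. The same library was the highest of the group for Nfkbia: 167.9, 203.6 and 428.8 CPM in hypoxia against 178.6, 248.5 and 220.4 CPM in normoxia, groups that overlapped (log2 0.31 ± 0.26, adjusted p = 0.586). A list of 25 immediate early genes, whose RNA appears within minutes of stimulation or handling of tissue, was also at its highest there: their mean log2 CPM was 1.355 above the mean of the 18 libraries, while the other libraries lay between -0.544 and 0.455. Wild type hypoxia replicates 0 and 1 were at 0.383 and -0.438, against -0.544 to -0.436 in wild type normoxia. In this contrast 10 of the 25 genes were called higher and 0 lower, where 2.85% of all tested genes were called higher. The part of the immediate early genes in the change of Tnfaip3 was not tested.

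With the shallowest library (a β-arrestin 1 -/- library that enters the shared estimate of spread) left out, an alternative chosen after seeing the data, 5 members were called higher, Relb (adjusted p = 0.0493) and Bcl3 (adjusted p = 0.0377) with the 3 above. The call of Nfkb2 was lost without wild type normoxia replicate 0 or 1 or hypoxia replicate 1 or 2, that of Nfkbie without normoxia replicate 1, and with the wild type groups fitted alone 0 of 10 members were called.

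**Figure D2:**
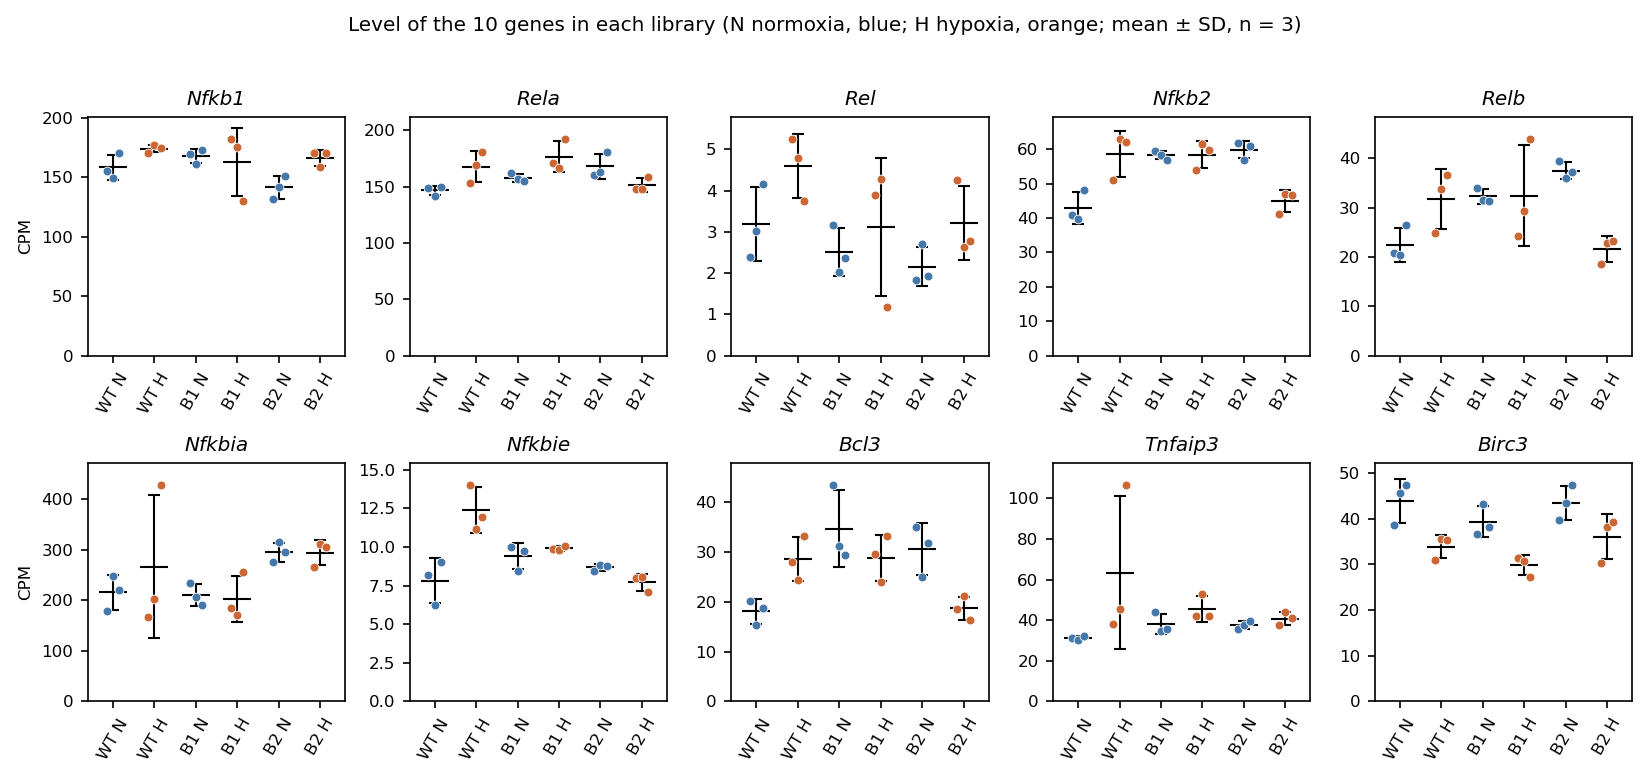
CPM of the 10 genes in each of 18 libraries (points), with mean and SD over 3 libraries (bars); WT is wild type, B1 β-arrestin 1 -/-, B2 labelled β-arrestin 2 -/-, N normoxia and H hypoxia. For Nfkb2, Relb and Bcl3, wild type normoxia and labelled β-arrestin 2 -/- hypoxia are the groups with the lowest means; the high point of Tnfaip3 (106.7 CPM) and of Nfkbia (428.8 CPM) is wild type hypoxia replicate 2.

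In β-arrestin 1 -/- lungs 0 of 10 members were called between hypoxia and normoxia by edgeR, where 2.95% of all genes were. At an unadjusted p under 0.05 there was 1, Birc3, which DESeq2 also called; limma called 0. Nfkb2 had 59.4, 58.4 and 57.0 CPM in normoxia and 53.9, 61.4 and 59.8 CPM in hypoxia, so the normoxic libraries lay inside the hypoxic range (log2 0.00 ± 0.10). Relb spread widely in hypoxia, at 24.2, 29.2 and 44.0 CPM, against 34, 31.7 and 31.3 CPM in normoxia (log2 0.00 ± 0.19). The highest of these came from the shallow replicate 2, which was also the lowest of all 18 libraries for Nfkb1 (129.8 CPM) and Rel (1.19 CPM).

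In the libraries labelled β-arrestin 2 -/-, Nfkb2, Relb and Bcl3 fell in hypoxia. That is 3 of 10 members lower, against 10.8% of all genes lower and 21.9% called in either direction, a contrast in which more genes moved than in any other. The members' median was -0.16, and that of all tested genes -0.04.

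Relb had 39.4, 36.0 and 37.2 CPM in normoxia and 18.7, 22.9 and 23.3 CPM in hypoxia (log2 -0.80 ± 0.19, adjusted p = 0.0089). Nfkb2 had 61.8, 57.0 and 60.9 CPM against 41.2, 47.0 and 46.6 CPM (log2 -0.41 ± 0.10, adjusted p = 0.0086). The groups were apart for both subunits, and both calls held in all 15 alternatives, leave-one-out fits included. Bcl3 fell from 35.0, 24.9 and 31.8 CPM to 18.6, 21.1 and 16.4 CPM (log2 -0.71 ± 0.18, adjusted p = 0.0139), a call lost without normoxia replicate 0 or hypoxia replicate 2. Nfkbie was at 8.44, 8.85 and 8.76 CPM in normoxia and 8.02, 8.04 and 7.10 CPM in hypoxia, with an estimate of -0.17 ± 0.14 that did not pass (adjusted p = 0.384). Nfkbia was nearly level at 276.7, 314.6 and 295.3 CPM against 265.9, 311.0 and 306.2 CPM, and so was Tnfaip3, at 35.7, 37.7 and 39.7 CPM against 37.7, 43.8 and 41.0 CPM.

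**Figure D3:**
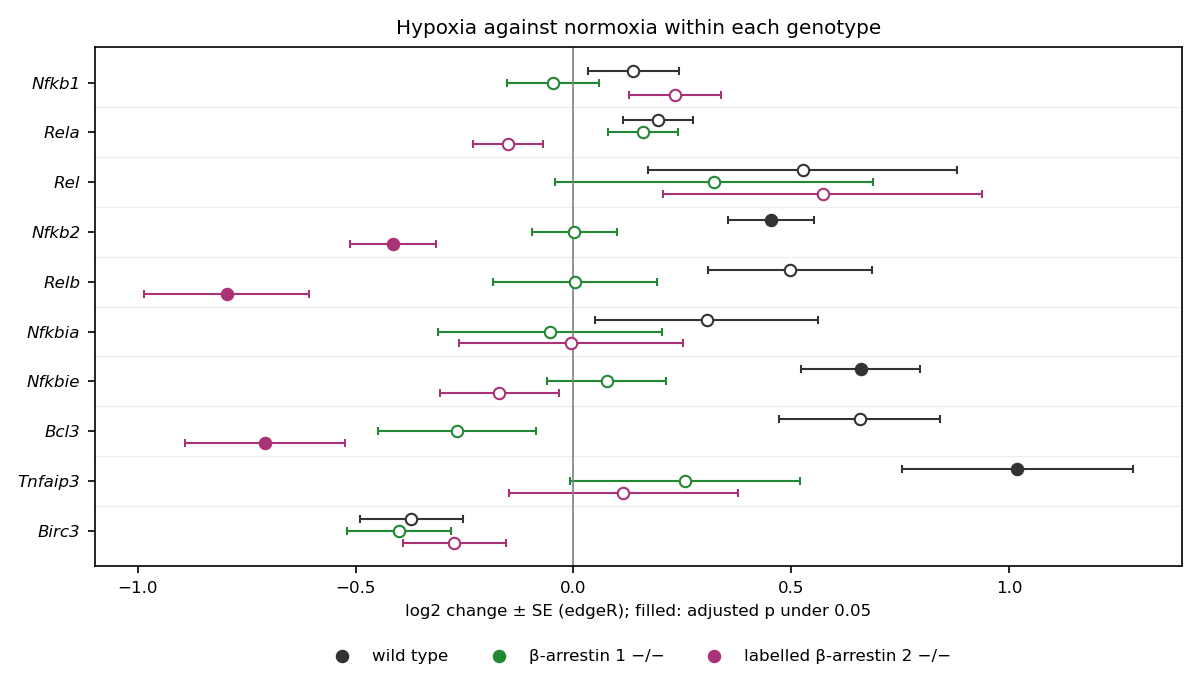
Log2 change from normoxia to hypoxia (x axis, ± SE from edgeR) of the 10 genes in wild type, β-arrestin 1 -/- and labelled β-arrestin 2 -/- lungs; filled points passed an adjusted p of 0.05. Nfkb2 lies at 0.45 in wild type, 0.00 in β-arrestin 1 -/- and -0.41 in labelled β-arrestin 2 -/-, while Birc3 lies below 0 in all 3.

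Whether the response to hypoxia differs between genotypes was tested directly, as the difference of the log2 changes. Between the libraries labelled β-arrestin 2 -/- and wild type, 4 of 10 members differed, all with a lower response in the labelled line: Nfkb2, Relb, Nfkbie and Bcl3. Over all tested genes 2.56% were called lower and 6.05% in either direction. The difference was -0.87 ± 0.14 for Nfkb2 (adjusted p = 0.0049), -1.29 ± 0.27 for Relb (adjusted p = 0.0152), -0.83 ± 0.19 for Nfkbie (adjusted p = 0.0241) and -1.36 ± 0.26 for Bcl3 (adjusted p = 0.0108). The first 2 and Bcl3 held in all 21 alternatives; Nfkbie held in 18 and was lost without wild type normoxia replicate 1 and labelled β-arrestin 2 -/- normoxia replicate 1 or hypoxia replicate 2. The subunits of the canonical branch were not called in the main fit: Rela at -0.34 ± 0.11 (adjusted p = 0.0758), Nfkb1 at 0.10 ± 0.15 and Rel at 0.05 ± 0.51. Rela was called lower in 3 of the 21 alternatives. The feedback genes Tnfaip3 (-0.90 ± 0.37, adjusted p = 0.140) and Nfkbia (-0.31 ± 0.36, adjusted p = 0.590) were not called either. Tnfaip3 passed in 1 of the 21 alternatives, over which its estimate ran from -1.17 to -0.29. The SE of Rel, the gene with the fewest fragments, was the largest of the 10.

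For β-arrestin 1 -/- minus wild type, 0 of 10 members and 0 of all tested genes were called (0%) by edgeR, with 898 genes at an unadjusted p under 0.05; DESeq2 called 4 genes higher and 5 lower. All 10 estimates were below 0. Bcl3 (-0.92 ± 0.26), Nfkbie (-0.58 ± 0.19) and Nfkb2 (-0.45 ± 0.14) each had an unadjusted p under 0.05 and an adjusted p of 0.807, so a difference from wild type was not detectable in this line. The same 3 wild type normoxia libraries enter every one of these differences, which are therefore not separate evidence. Those libraries also enter the wild type response to hypoxia and the comparisons with wild type in normoxia below, so these results are not separate evidence either.

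Nfkb2, Relb and Bcl3, the 3 members that fell in labelled β-arrestin 2 -/- hypoxia, stood higher in normoxia in that line than in wild type. Nfkb2 was higher by 0.48 ± 0.10 (adjusted p = 0.0107), Relb by 0.74 ± 0.19 (adjusted p = 0.0277) and Bcl3 by 0.76 ± 0.18 (adjusted p = 0.0231), in each case with all 3 libraries above all 3 of wild type, as the values above show. This makes 3 of 10 members higher, where 4% of all genes were higher and 9.49% were called. Each of these calls was lost without wild type normoxia replicate 1 and, in another fit, without labelled β-arrestin 2 -/- normoxia replicate 0, which left 0 of 10 members called. Relb was also lost without wild type normoxia replicate 0 or labelled normoxia replicate 1, and Bcl3 without wild type normoxia replicate 2. Nfkbia also had its groups apart in normoxia (log2 0.45 ± 0.26), but did not pass (adjusted p = 0.233).

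In hypoxia the labelled line was below wild type for Nfkbie (log2 -0.68 ± 0.14, adjusted p = 0.0244), the 1 member called, where 0.578% of genes were called lower and 0.923% in all. That call was lost when wild type hypoxia replicate 0 or 2, or any of the labelled hypoxia libraries, was left out, and with the groups fitted alone. Nfkb2 (-0.39 ± 0.10), Relb (-0.56 ± 0.19) and Bcl3 (-0.61 ± 0.18) were lower in every labelled library than in every wild type library without passing the threshold (adjusted p = 0.0826, 0.205 and 0.146).

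For β-arrestin 1 -/- against wild type, 0 of 10 members were called in either exposure by edgeR, against 0.221% of genes in normoxia and 0.201% in hypoxia. In normoxia Bcl3 read 43.5, 31.1 and 29.4 CPM, above all wild type libraries, with a log2 difference of 0.94 ± 0.18 and an adjusted p of 0.0510. Nfkb2 (0.44 ± 0.10, adjusted p = 0.0985) and Relb (0.52 ± 0.19, adjusted p = 0.392) were likewise above wild type in every library. At an unadjusted p under 0.05 there were 3 members in normoxia and 1 in hypoxia, Nfkbie. DESeq2 called 2 members in normoxia and 0 in hypoxia, and limma called 0 in both.

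**Figure D4:**
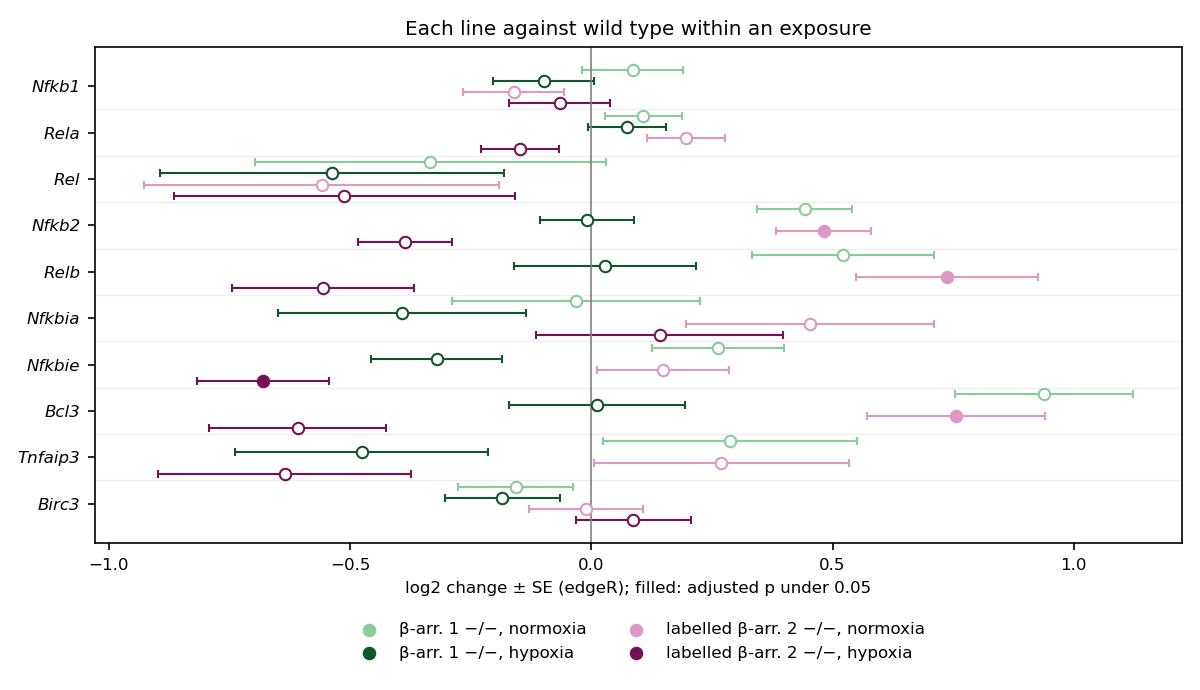
Log2 difference of each line from wild type (x axis, ± SE from edgeR) for the 10 genes, in normoxia (light) and hypoxia (dark); filled points passed an adjusted p of 0.05. In normoxia Nfkb2, Relb and Bcl3 lie to the right of 0 in both lines; in hypoxia their labelled β-arrestin 2 -/- values lie to the left, as does Nfkbie, called at -0.68.

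Birc3, the gene of the ubiquitin ligase cIAP2 that acts below tumour necrosis factor receptors, was lower in hypoxia in all genotypes: 38.5, 45.7 and 47.4 CPM against 30.9, 35.6 and 35.2 CPM in wild type, 36.6, 43.3 and 38.2 CPM against 31.4, 30.7 and 27.3 CPM in β-arrestin 1 -/-, and 39.8, 43.5 and 47.3 CPM against 30.4, 38.3 and 39.4 CPM in the labelled β-arrestin 2 -/- line. The groups did not overlap within any genotype. No single genotype passed the threshold in the main fit (adjusted p = 0.0882, 0.0889 and 0.107). DESeq2 called Birc3 lower in wild type (adjusted p = 0.036) and in β-arrestin 1 -/- (adjusted p = 0.0301). The mean over the 3 genotypes was -0.35 ± 0.07 (adjusted p = 0.0023) and was called in 25 of 25 alternatives. In that averaged contrast 19.4% of all genes were called, and of the members Birc3 and Tnfaip3 (0.46 ± 0.15, adjusted p = 0.0429), 2 of 10. Tnfaip3 kept its call in 9 of the 25 alternatives. Birc3 showed no difference of response between genotypes beyond its error: 0.10 ± 0.17 for the labelled β-arrestin 2 -/- line and -0.03 ± 0.17 for β-arrestin 1 -/-.

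Rela and Nfkb1, the canonical pair, were not called. Rela was at 148.7, 141.7 and 149.7 CPM in wild type normoxia and 153.3, 169.1 and 181.0 CPM in hypoxia, apart but not called (log2 0.19 ± 0.08, adjusted p = 0.192). Nfkb1 was at 155.4, 149.3 and 170.3 CPM against 170.8, 176.8 and 174.9 CPM (log2 0.14 ± 0.10, adjusted p = 0.536). Neither passed the threshold in any of the contrasts between 2 groups. In the labelled β-arrestin 2 -/- line Nfkb1 went from 131.6, 141.8 and 151.3 CPM to 170.6, 158.5 and 170.2 CPM in hypoxia (log2 0.23 ± 0.10, adjusted p = 0.119), and this passed once the shallowest library was left out (adjusted p = 0.0118).

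The authors' deposited table holds their own Cuffdiff tests of the same pairs of groups. At a q under 0.05, the authors' deposited table called Relb, Nfkbie, Tnfaip3 and Bcl3 higher in wild type hypoxia (8.98% of its tested genes were called) and 0 members in β-arrestin 1 -/- hypoxia (7.8%). For labelled β-arrestin 2 -/- hypoxia the authors' deposited table had Relb and Bcl3 lower (18.2%). Against wild type in normoxia, the authors' deposited table had Relb and Bcl3 higher in β-arrestin 1 -/- (4.33%) and Nfkb2, Relb and Bcl3 higher in the labelled β-arrestin 2 -/- line (14.6%). Against wild type in hypoxia, the authors' deposited table had Tnfaip3 lower in β-arrestin 1 -/- (4.51%) and Relb, Nfkbie, Tnfaip3 and Bcl3 lower in the labelled line (5.28%). How spread was estimated in these tests is not given in the sources used here. Relb and Bcl3 were called in the same direction by both methods in the labelled line for hypoxia and for normoxia against wild type. So were Nfkb2 in that line for normoxia against wild type, and Nfkbie for hypoxia against wild type. In wild type hypoxia Nfkbie and Tnfaip3 were called higher by both. Nfkb2 was called by edgeR in wild type hypoxia and in labelled β-arrestin 2 -/- hypoxia, where its q in the authors' deposited table was 0.0671 and 0.0992.

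The rest of the pathway was read from 114 further genes in 7 lists, of which 112 were tested. In wild type hypoxia 12 were called higher and 2 lower, where 2.85% of all tested genes were called higher and 4.76% in either direction. Receptors gave 5 of 19 higher and 0 lower, among them Cd40, a receptor known to feed the non-canonical branch (log2 1.13 ± 0.15, adjusted p = 0.0007), Cd14, the co-receptor for bacterial lipopolysaccharide (0.73 ± 0.18), Tnfrsf11a, which encodes RANK (0.53 ± 0.14), and Tnfrsf1b, the second receptor of tumour necrosis factor (0.33 ± 0.09). Of 36 tested inflammatory targets 6 were higher and 1 lower. They included the pentraxin gene Ptx3 (2.75 ± 0.38), the neutrophil chemokine gene Cxcl2 (5.28 ± 1.18) and Nos2, inducible nitric oxide synthase (1.46 ± 0.35), while the adhesion molecule gene Vcam1 fell by 0.94 ± 0.13. Cxcl2 had 0.70, 0.42 and 11.9 CPM in hypoxia, the last again in replicate 2. Of the 112 genes, 4 were called without that library and 3 without wild type normoxia replicate 1. Tax1bp1, a partner of A20, fell by 0.34 ± 0.08.

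In the labelled β-arrestin 2 -/- line 5 of the 112 rose in hypoxia and 13 fell. With 21.9% of all tested genes called in this contrast and 10.8% called lower, these counts were near the background. Of the receptors 1 rose and 4 fell: Cd40 rose (0.56 ± 0.15), and Il18r1 (-1.03 ± 0.13), Il1rl1, the receptor of interleukin 33 (-1.29 ± 0.21), Tnfrsf1b (-0.41 ± 0.09) and Il1r1 (-0.43 ± 0.11) fell. Of the inflammatory targets 1 rose and 6 fell, with Ptx3 up (1.61 ± 0.39) and Vcam1 (-1.27 ± 0.13) and the interferon-linked chemokine genes Cxcl10 (-2.54 ± 0.63) and Cxcl9 (-2.47 ± 0.67) down. Cxcl9 and Cxcl10 had their highest value of all libraries, 5.24 and 5.09 CPM, in normoxia replicate 0 of this line, and without that library 8 of the 112 were called in place of 18. Tnfsf13b, the B-cell survival factor BAFF that acts through the non-canonical branch, fell (-0.73 ± 0.17), as did Myd88 (-0.28 ± 0.09) and Tnip3 (-0.86 ± 0.28), while the kinase genes Ripk2 (0.54 ± 0.11) and Ripk1 (0.33 ± 0.10) and the adaptor gene Traf5 (0.63 ± 0.21) rose.

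In β-arrestin 1 -/- hypoxia, where 2.95% of all tested genes were called, 3 of the 112 rose and 2 fell: Cd40 (1.17 ± 0.15), Ptx3 (2.31 ± 0.40) and Nos2 (1.53 ± 0.35) rose, and Vcam1 (-1.10 ± 0.13) and the endothelial selectin gene Sele (-2.98 ± 0.39) fell. Cd40 and Ptx3 were thus called higher and Vcam1 lower in hypoxia in each of the 3 genotypes.

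For the difference of hypoxia responses, labelled β-arrestin 2 -/- minus wild type, 10 of the 112 were lower and 1 higher, where 2.56% of all tested genes were lower and 6.05% were called, with a median of -0.26 against -0.06 over all tested genes. Receptors gave 4 of 19 lower, Tnfrsf1b (-0.74 ± 0.13), Tnfrsf11a (-0.74 ± 0.20), Il1rl1 (-1.10 ± 0.30) and Il18r1 (-0.65 ± 0.18). Inflammatory targets gave 6 of 36 lower, led by Cd83, a surface protein of mature dendritic cells (-1.50 ± 0.31), and the chemokine genes Ccl20 (-6.88 ± 1.44) and Cxcl5 (-4.17 ± 0.95). Ccl20 was low and uneven: wild type hypoxia replicate 2 had 9.86 CPM against 0.52 and 0.55 in the other libraries of the group, and labelled β-arrestin 2 -/- normoxia replicate 0 had 5.40 CPM against 2.09 and 1.61. Bcl2a1d (-1.90 ± 0.44) has near-identical copies in the genome, so its fragments may be split among them. Ripk2 was the 1 gene higher (0.72 ± 0.16). Without wild type hypoxia replicate 2 the total was 4 in place of 11, and without labelled β-arrestin 2 -/- hypoxia replicate 0 it was 3.

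In normoxia 6 of the 112 were higher and 3 lower in the labelled β-arrestin 2 -/- line than in wild type, where 9.49% of all tested genes were called, so this count too was near the background. Tnfrsf1b (0.32 ± 0.09), Socs3 (0.70 ± 0.20) and Ccl20 (3.67 ± 1.06) were among those higher; Ripk2 (-0.48 ± 0.11), Irak3 (-0.68 ± 0.15) and Otud7b (-0.54 ± 0.13) were the 3 lower. Without normoxia replicate 0 of that line 0 of the 112 were called. In β-arrestin 1 -/- normoxia, with 0.221% of all tested genes called, Sele was the 1 gene of the 112, higher by 2.35 ± 0.37.

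Markers of other cell types moved in the same contrasts, some with the members and some against them. In wild type hypoxia 2.85% of all tested genes were called higher. There 3 of 5 tested B cell markers and 2 of 8 T and NK cell markers were called higher and 0 lower. So were 2 of 7 alveolar macrophage markers and 2 of 7 dendritic cell markers, with 0 lower. The dendritic cell list had a median log2 change of 0.03, with 4 of 7 estimates above 0. Its summed level ran from 104.4 to 135.8 CPM in normoxia and from 119.1 to 146.8 CPM in hypoxia, with overlap. The summed level of the B cell list ran from 12.2 to 40.4 CPM in wild type normoxia and from 38.8 to 157 CPM in hypoxia, and that of the alveolar macrophage list from 80.0 to 172 CPM and from 195.6 to 226.5 CPM. In labelled β-arrestin 2 -/- hypoxia 10.8% of all tested genes were called lower and 21.9% in either direction. There 5 of 7 dendritic cell markers fell and 0 rose. Their summed level ran from 140.9 to 157.8 CPM in normoxia and from 112.4 to 123.5 CPM in hypoxia, without overlap. In addition, 4 of 4 mesothelial markers and 3 of 5 fibroblast markers fell. In that same contrast 2 of 6 neutrophil markers rose and 0 fell, 6 of 7 alveolar macrophage markers had estimates above 0 with 0 called, and the B cell and T and NK cell lists had medians of 0.02. For the difference of responses between that line and wild type, 2.56% of all tested genes were called lower and 6.05% in either direction. Of the markers, 3 of 7 for dendritic cells were lower and 1 higher, and 2 of 7 for alveolar macrophages were lower. Heart muscle in mice also sheathes the pulmonary veins. The summed level of its transcripts ran from 70.0 to 333.3 CPM in wild type normoxia and from 787.9 to 1422 CPM in hypoxia. In the labelled β-arrestin 2 -/- line it ran from 428.6 to 5045 CPM in normoxia and from 1390 to 2488 CPM in hypoxia. In β-arrestin 1 -/- lungs it ran from 566 to 1653 CPM in normoxia and from 206.9 to 1703 CPM in hypoxia. Of 4 tested airway club cell markers 2 were called higher in wild type hypoxia and 2 lower for the difference of responses. In labelled β-arrestin 2 -/- normoxia against wild type 3 were called higher, where 4% of all tested genes were. Pax5 of the B cell list, Ly6g of the neutrophil list, Chil3 of the alveolar macrophage list, Scgb1a1 of the airway club cell list and Sftpc of the alveolar type 2 list were not analysed here. The part of any of these in the levels of the 10 genes was not tested.

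Within groups, Nfkb2 and Relb varied together. After each group's mean was subtracted, their Pearson correlation over 18 libraries was 0.773, and 0.969 over the 17 libraries other than the shallowest; with 17 libraries each was the other's closest gene among 12461 compared. Nfkbia and Tnfaip3, both feedback genes of the canonical branch, had 0.790 over 18 libraries and 0.895 over 17. Over the 45 pairs of members the median was 0.179 with a range from -0.612 to 0.815 over 18 libraries, and 0.23 with a range from -0.387 to 0.969 over 17. The pair of 0.815, Nfkb1 and Rel, had 0.421 without the shallowest library. These correlations are descriptions over libraries that share tissue make-up and depth, and the groups contribute 3 points each.

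**Figure D5:**
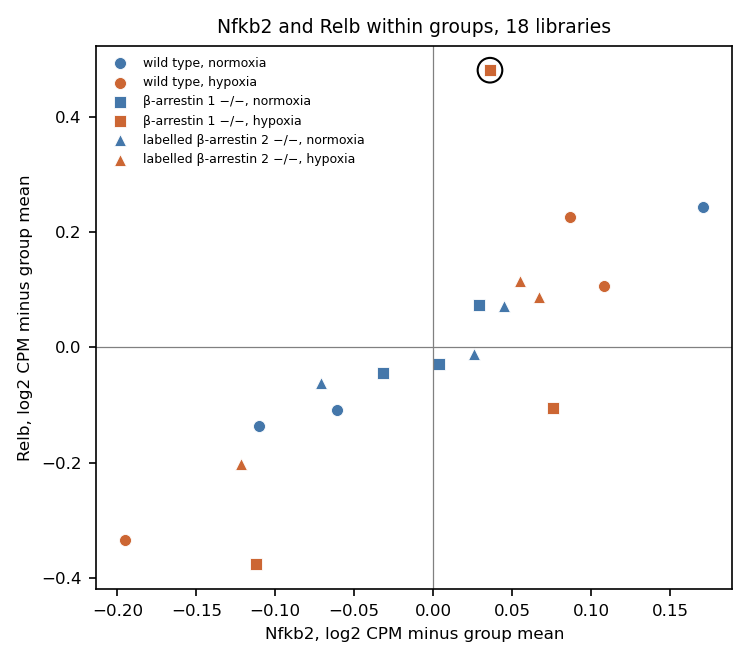
Log2 CPM of Nfkb2 (x axis) and Relb (y axis) minus the mean of the group, for 18 libraries; shapes are genotypes, blue is normoxia and orange hypoxia. The circled point is β-arrestin 1 -/- hypoxia replicate 2, the shallowest library, at 0.482 for Relb and 0.036 for Nfkb2; the correlation is 0.773 with it and 0.969 without it.

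Among named genes whose log2 CPM averaged 1 or more, those closest to each member within groups over 18 libraries were as follows. Nfkbia was closest to Emd (0.950), Tmem252 (0.939) and Rasgef1b (0.922), and Tnfaip3 to Nuak2 (0.897), Tdrd7 (0.888) and Tmem252 (0.882), so that Tmem252 stood near both. Bcl3 was closest to the immediate early gene Ier5 (0.865), Ttc27 (0.819) and Dnajc9 (0.818). Relb was closest to Atp6v1c2 (0.965), Tkt (0.964) and Sh3glb2 (0.963), and Nfkb2 to Fcrls (0.901), Plbd1 (0.897) and Selplg (0.895). Nfkbie (Cirh1a, 0.886), Rela (Usp39, 0.890) and Birc3 (Tyw1, 0.894) had single leading genes near 0.89. The closeness of Nfkb1 to Bmp5 (0.973) and of Rel to Adnp (0.947) leaned on the shallowest library, without which they were 0.904 and 0.843.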

How the data were processed

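Poly(A)-selected RNA of frozen lung was sequenced, per the labels' protocols. The submitters' processing notes name FastQC, TopHat and Cuffdiff on mm10; no version or annotation is listed, both being not given in the sources used here. Per the file headers, the authors' table holds an estimated count of fragments for each gene in each library (93.3% of values are whole, and all 180 of the members) and a deposited FPKM. Of the authors' comparison table, the q-value, the p-value and the direction of the test score served here.

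The 5 features with status HIDATA were left out. Counts were rounded and tested with edgeR 4.0.16 (R 4.3.3): TMM scaling, filterByExpr, 1 fit of 18 libraries, quasi-likelihood F-tests, Benjamini-Hochberg adjustment over 15388 genes, threshold 0.05. Log2 changes carry an SE derived from the F-test, the absolute log2 change divided by the square root of F. CPM is scaled by TMM. Alternatives were DESeq2 1.42.0, its size factors used within edgeR, testing without a filter, limma 3.58.1 on log2(FPKM + 1) or log2(FPKM + 0.1), the compared groups alone, a replicate block, and each library left out. Leaving the shallowest library out of contrasts without its group was added after seeing the data. The tests were tested on simulated counts.

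The 10 members, the further lists and the contrasts were chosen with earlier results of these data known. Of the further lists, up to 4 called genes per list and contrast were named, smallest adjusted p first; 1 of them is not reported here. Markers and likeness (the 3 most correlated genes per member) followed fixed lists and rules. Promoters came from RefSeq; no protein sequence was used here. Counting precision is set by depth: 19 fragments were the fewest for a member in a library.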

Additional observations from a re-analysis of the deposited data

Results flagged for a closer look

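For 4 of the 10 genes the response to hypoxia differed between the libraries labelled β-arrestin 2 -/- and wild type, by the test of the difference itself (edgeR, adjusted over all tested genes). The difference of log2 changes, labelled line minus wild type, was -0.87 for Nfkb2, -1.29 for Relb, -0.83 for Nfkbie and -1.36 for Bcl3. Since Arrb2 was not called lower in these libraries in either exposure, the differences are those of the labelled groups.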

How the results depend on the processing

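Main values are given first. Members called in wild type hypoxia were 3. DESeq2 gave 5, with Birc3 among them as lower, and each limma setting gave 2. The replicate block gave 3 (without Tnfaip3, adjusted p = 0.0560) and the compared groups alone 0. With the shallowest library left out of the shared fit there were 5, and leaving out 1 library at a time gave 0 to 3. In β-arrestin 1 -/- hypoxia 0 became 1 with DESeq2. For the mean over genotypes 2 became 1 with each limma setting and with the replicate block, and 1 to 4 with a library left out. For β-arrestin 1 -/- against wild type in normoxia 0 became 1 with DESeq2's size factors, 2 with DESeq2, 1 without a filter, 1 with the replicate block and 1 without the shallowest library. For labelled β-arrestin 2 -/- against wild type, 3 in normoxia became 0 to 3 with a library left out, and 1 in hypoxia became 2 with DESeq2, 0 with the compared groups alone and 0 to 1 with a library left out. Of the 112 further pathway genes, the 14 called in wild type hypoxia became 3 to 22 over all alternatives, the 18 in labelled β-arrestin 2 -/- hypoxia 8 to 27, the 9 against wild type in normoxia 0 to 28 and the 11 for the difference of responses 3 to 24, the high ends with DESeq2 or without the shallowest library. Where libraries were left out or groups fitted alone, fewer libraries estimated the spread; otherwise the cause was not tested. No estimate changed sign among the 39 combinations of a member and a contrast with an unadjusted p under 0.05, of which 16 were called. Deviations of same-numbered libraries from their group means had correlations from -0.212 to 0.464. In none of 7 comparisons were all of them above 0.1. With 3 libraries a group this check cannot exclude that numbers pair samples. Rel had the fewest fragments of the members, 19 to 121 a library.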
